A study of Zea mays with 6 samples.

Results

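DNase I hypersensitive sites (DHSs) in the middle of the 10 maize chromosomes were taken from 2 lists of inbred line B73, 1 for the inner stem tissue of V2 seedlings (V2-IST) and 1 for the inner layers of the husk at the stage when silks emerged. Chromosome length was set to the last position that any DHS of the 2 lists reached, and a DHS was central when its midpoint lay between 40% and 60% of that length. In V2-IST 1915 of 18485 DHSs were central, and in husk 1624 of 15261, together 3539 of 33746 DHSs in all. The choice used position alone, so number, width and tissue class were free to differ. The central windows summed to 421 Mb, and the rest of the chromosomes to 1683 Mb.

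DNase I cuts DNA most readily where nucleosomes are absent or loosely held, so a DHS marks DNA that proteins can reach, typically a promoter, an enhancer or another regulatory element. In maize, the middle of most chromosomes is the pericentromere, which is poor in genes, rich in retrotransposons and largely packed as methylated heterochromatin, whereas genes are concentrated towards the chromosome arms. Maize centromeres are not all in the middle, and the window was drawn by length and not by the centromere.

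The study compared a young seedling tissue with husk, the leaves around the ear, to find regulatory DNA that is open in either tissue. Both tissues had 2 biological replicates with nuclei from pooled plants, sequenced as 2 libraries for V2-IST and, with a technical repeat, as 3 for husk. A library of naked genomic DNA digested with DNase I was the background against which the authors called peaks, and it is not itself a list. The authors kept peaks that overlapped between the biological replicates by at least 70%. They deposited 1 list per tissue that gives the position of each DHS, without a score, a read count or a value per replicate. An SD over replicates can therefore not be given, and differences between the tissues could not be set against the variation of replicates. Centre and rest were compared over the 10 chromosomes instead, with an exact two-sided permutation test that exchanged centre and rest within each chromosome, and p-values were adjusted over 17 tests with the Benjamini-Hochberg method. The smallest p this test allows is 0.00195. Intervals on shares are Wilson intervals (95%) and cover counting error only. Reads without a unique position had been removed, and the uniquely mappable length of the centre was not used here, so a density is per Mb of assembled chromosome and the part of mappability in it was not tested. Sequencing depth by library was not used here.

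Central DHSs were sparse in both tissues. The centre held 4.55 DHSs per Mb in V2-IST, against 9.84 per Mb in the rest of the chromosomes. In husk it held 3.86 per Mb, against 8.10 per Mb in the rest. The mean log2 difference between centre and rest was -1.07 ± 0.38 in V2-IST (SD, n = 10 chromosomes, exact permutation test, adjusted p = 0.00553) and -1.03 ± 0.42 in husk (SD, n = 10 chromosomes, exact permutation test, adjusted p = 0.00553), which corresponds to 0.475 and 0.491 of the density in the rest. The density was lower in the centre on 10 of 10 chromosomes in both tissues. A central 20% of the length thus carried 10.4% of the V2-IST list and 10.6% of the husk list. By covered length, DHSs took up 0.271% of the centre in V2-IST, against 0.681% of the rest, and 0.207% of the centre in husk, against 0.519% of the rest.

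The density fell from the outer to the adjacent parts, but the sides of the centre were not alike. The parts next to the centre, from 20% to 40% and from 60% to 80% of the length, held 6.63 DHSs per Mb in V2-IST and 5.72 per Mb in husk. The outer parts held 13.1 per Mb in V2-IST and 10.5 per Mb in husk. Against the adjacent parts pooled, the centre was lower, with a mean log2 difference of -0.47 in V2-IST (8 of 10 chromosomes, exact permutation test, unadjusted p = 0.0156) and -0.49 in husk (9 of 10 chromosomes, exact permutation test, unadjusted p = 0.0176). In steps of 5% from 20% to 40% of the length, the density was 5.04, 5.12, 3.74 and 3.89 DHSs per Mb in V2-IST. In husk it was 4.60, 4.31, 3.02 and 3.27 per Mb. These values lay within the range of the steps inside the centre. From 60% to 80% they were higher, at 7.59, 8.42, 9.36 and 9.86 per Mb in V2-IST and 6.45, 7.33, 8.16 and 8.59 in husk. In these values the centre was sparser than the later side only, and no test was made by side.

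**Figure D1:**
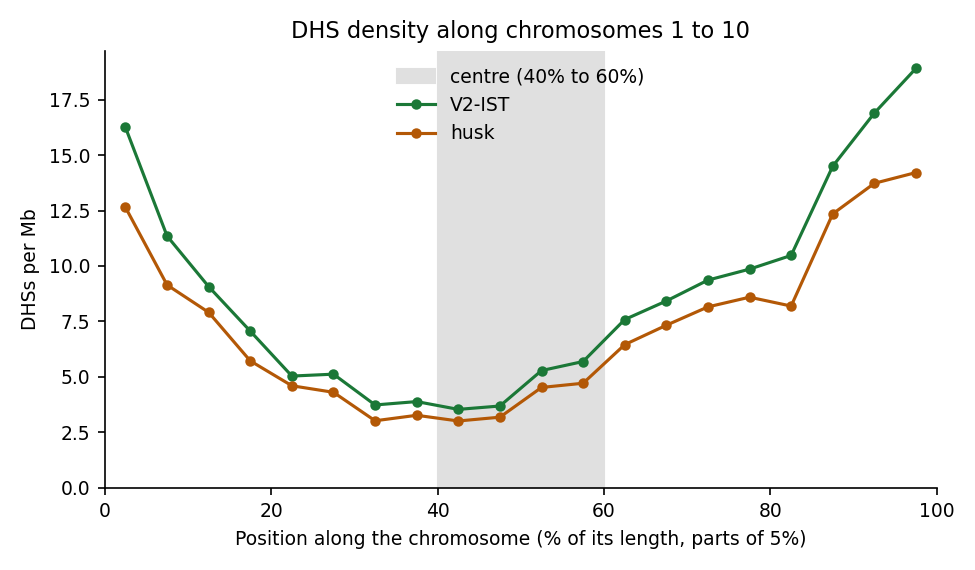
DHSs per Mb (vertical axis) in 20 parts of 5% of the chromosome length (horizontal axis), summed over the 10 chromosomes, for V2-IST and husk; the grey band is the centre. Both lines are lowest between 30% and 50% of the length, and within the centre they are higher after the midpoint than before it.

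The centre itself was uneven, and its first part was the emptier one. From 40% to 50% of the length there were 760 DHSs in V2-IST and 652 in husk, whereas from 50% to 60% there were 1155 in V2-IST and 972 in husk. In steps of 5%, the density was 3.54, 3.69, 5.29 and 5.69 DHSs per Mb in V2-IST. In husk the same steps held 3.01, 3.18, 4.52 and 4.71 per Mb. Chromosome 1 contributed most to this asymmetry, with 63 DHSs before and 200 after the midpoint in V2-IST, and 50 before and 170 after it in husk. On chromosome 6 there were 55 before and 143 after the midpoint in V2-IST, and 56 before and 120 after it in husk. Chromosome 5 had the opposite order, with 103 before and 63 after the midpoint in V2-IST, and 87 before and 54 after it in husk, and chromosome 8 was even, with 104 and 105 DHSs in V2-IST.

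The emptiest 5% of a chromosome was inside the centre on 3 of the 10 chromosomes and before the centre on the other 7, in both tissues. On chromosome 1 it was the part from 40% to 45%, with 13 V2-IST and 10 husk DHSs (0.848 and 0.652 per Mb). On chromosome 4 it was the same part, with 26 V2-IST and 22 husk DHSs (2.11 and 1.78 per Mb). On chromosome 5 it was the part from 45% to 50%, with 29 V2-IST and 24 husk DHSs (2.59 and 2.15 per Mb). The tissues therefore placed the minimum in the same part on each of these 3 chromosomes. On chromosome 7 the minimum lay just before the centre, with 4 V2-IST DHSs from 30% to 35% and 7 husk DHSs from 35% to 40%, and on chromosome 6 it lay near the start of the assembly, from 5% to 10%. A window set by length alone thus holds the emptiest stretch of some chromosomes and misses that of others.

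**Figure D2:**
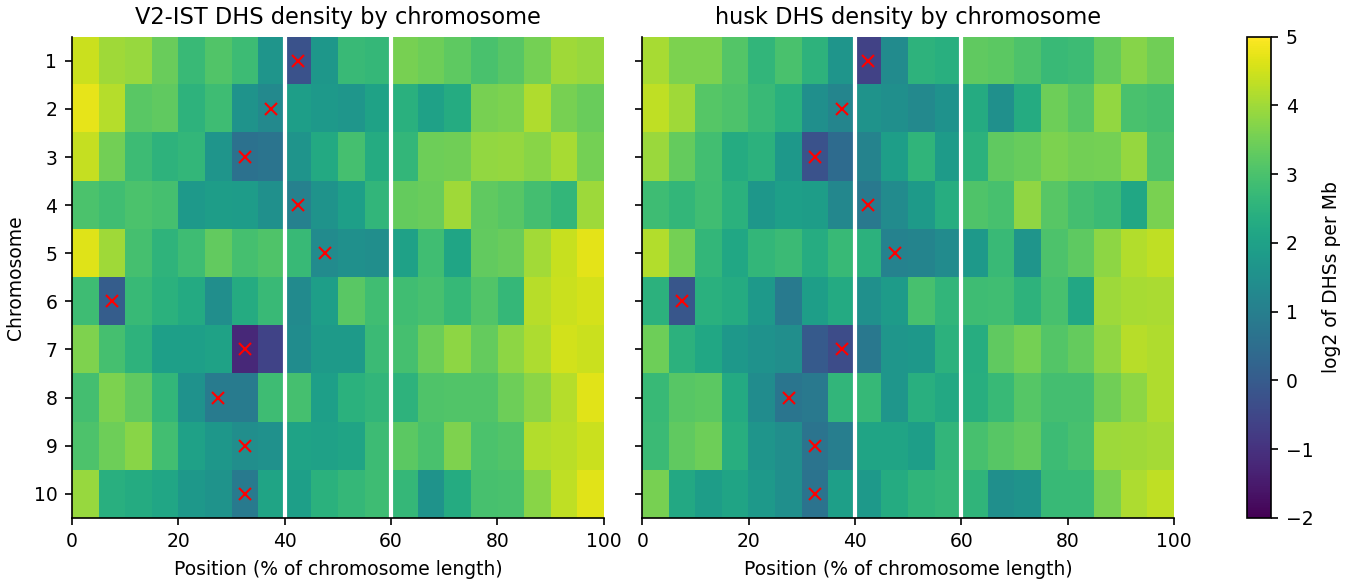
Density of DHSs on a log2 scale (colour, DHSs per Mb) along chromosomes 1 to 10 (vertical axis) in parts of 5% of the length (horizontal axis), for V2-IST on the left and husk on the right; white lines bound the centre and crosses mark the lowest part of each chromosome. The cross lies between the white lines on chromosomes 1, 4 and 5 and before them on the other 7.

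By chromosome, the number of central DHSs followed the size of the window only in part. Chromosome 1 had the longest window (chr1:122702406-184053608) and the most central DHSs, 263 in V2-IST and 220 in husk, or 4.29 and 3.59 per Mb. Chromosome 2 was the sparsest, with 177 V2-IST and 137 husk DHSs, or 3.62 and 2.80 per Mb. Chromosomes 4, 5 and 7 were also sparse: they had 3.77, 3.71 and 4.12 V2-IST DHSs per Mb. Their husk lists had 3.26, 3.15 and 3.46 DHSs per Mb. The densest centres were those of chromosomes 6, 8 and 10, with 5.71, 5.77 and 5.70 DHSs per Mb in V2-IST and 5.07, 4.89 and 5.17 in husk. Chromosomes 3 and 9 lay between these, with 5.10 and 4.83 per Mb in V2-IST and 3.89 and 4.61 in husk. As a share of the list of their own chromosome, central DHSs made up between 7.33% (chromosome 5) and 14.8% (chromosome 10) in V2-IST, and between 7.76% (chromosome 2) and 15.7% (chromosome 10) in husk.

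Open chromatin in the centre was separated by long stretches without any DHS. When overlapping DHSs of the 2 lists were joined, the centre had 2219 regions, and the median gap between neighbouring regions was 90.3 kb, against 28.4 kb in the rest. Gaps of more than 500 kb made up 8.56% of the central gaps (190), against 2.39% in the rest (460). Of 4208 central windows of 100 kb, 66.6% had no region, against 49.2% of 16837 windows in the rest. The share of empty windows in the centre ranged from 58.6% on chromosome 3 to 73.2% on chromosome 5. Windows with 5 or more regions were rare in the centre, at 0.737% (31 windows, at most 8 regions), against 5.02% in the rest (845 windows, at most 18 regions).

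The 3 longest central stretches without a DHS in either tissue were chr1:133043867-137255615 (4.21 Mb), chr1:127801957-131513655 (3.71 Mb) and chr5:104155809-107624805 (3.47 Mb). Both stretches on chromosome 1 lie around its emptiest part. Between them stood the most isolated region of the centre, chr1:131513656-131513960, a region of 305 bp that was open in both tissues and had no other region within 1528 kb. The next most isolated were chr4:112540970-112542117, of 1148 bp and open in both tissues (1373 kb to the nearest region), and chr4:105334088-105334240, of 153 bp and found in V2-IST only (1274 kb). Isolated regions were thus found in both classes, shared and tissue-only.

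Central DHSs were also narrower. The median width was 406 bp in V2-IST, against 495 bp in the rest, and 377.5 bp in husk, against 463 bp in the rest. The mean log2 difference of the medians was -0.27 ± 0.15 in V2-IST (SD, n = 10 chromosomes, lower on 9 of 10, exact permutation test, adjusted p = 0.00949). In husk it was -0.28 ± 0.10 (SD, n = 10 chromosomes, lower on 10 of 10, exact permutation test, adjusted p = 0.00553). Pooled, the parts next to the centre were intermediate, with medians of 464 bp (V2-IST) and 439 bp (husk), and the outer parts were widest, with 510 bp (V2-IST) and 478 bp (husk). The sides were not alike. The steps of 5% from 30% to 40% of the length had 428 and 425 bp in V2-IST and 403.5 and 372.5 bp in husk. Steps inside the centre ranged from 389 to 427.5 bp in V2-IST and from 361 to 391 bp in husk. From 60% to 80% they ranged from 456.5 to 499 bp in V2-IST and from 436 to 478.5 bp in husk. Chromosome 6 was the exception in V2-IST: its central median of 476 bp was the highest of the 10 chromosomes. The lowest central medians in both tissues were those of chromosome 2, at 354 bp (V2-IST) and 348 bp (husk).

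**Figure D3:**
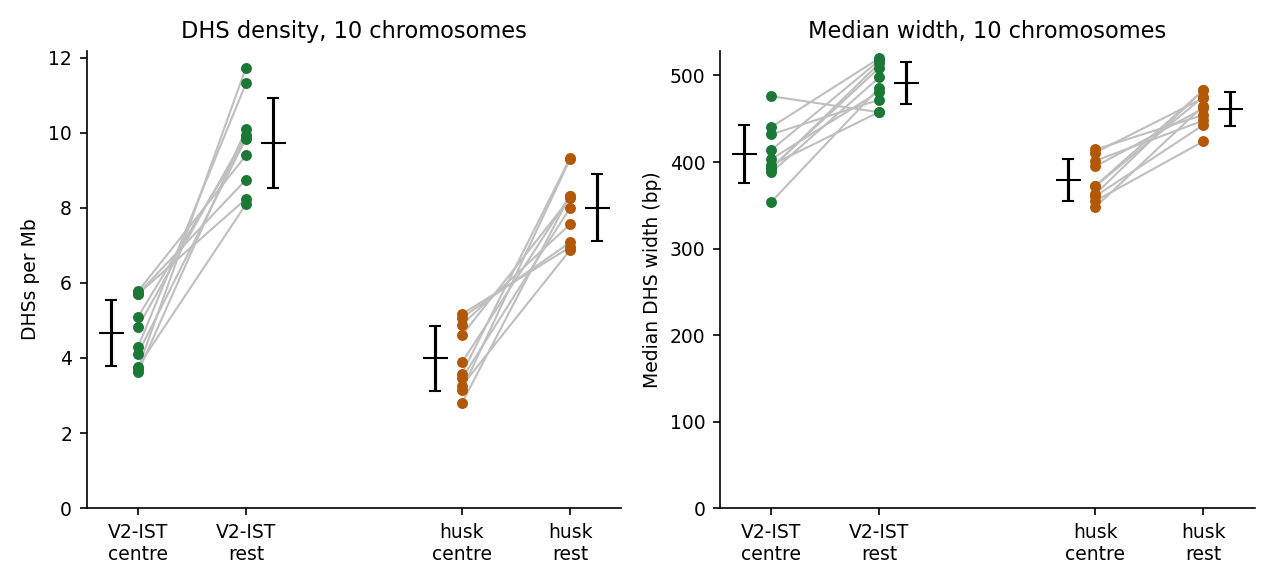
DHS density per Mb (left) and median DHS width in bp (right) in the centre and in the rest of each chromosome, for V2-IST and husk; points are the 10 chromosomes, grey lines join the same chromosome, and bars beside the points give the mean and SD over chromosomes. Every density line goes up from centre to rest, and every width line does so except that of chromosome 6 in V2-IST.

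Narrow DHSs took a larger share of the centre and very wide DHSs a smaller one. DHSs under 300 bp made up 24.3% of the central V2-IST DHSs (466), against 20.04% in the rest, and 30.9% of the central husk DHSs (502), against 22.8% in the rest. DHSs of at least 1000 bp made up 12.3% of the central husk DHSs (199), against 16.6% in the rest, a mean difference of -4.22 percentage points (lower on 9 of 10 chromosomes, exact permutation test, adjusted p = 0.0125). Against the adjacent parts alone this difference was -2.94 percentage points and did not pass (exact permutation test, unadjusted p = 0.115). In V2-IST the share was 17.0% in the centre (325), against 19.8% in the rest, a difference of -2.69 percentage points that did not pass (exact permutation test, adjusted p = 0.141). Chromosome 6 again stood at the top, with 25.8% of its central V2-IST DHSs and 18.2% of its central husk DHSs at 1000 bp or more. DHSs of at least 2000 bp were few, at 1.57% in V2-IST (30), against 3.65% in the rest, and 1.42% in husk (23), against 2.77% in the rest. At that width the difference passed in V2-IST (-1.94 percentage points, exact permutation test, unadjusted p = 0.00781) and not in husk (-1.26 percentage points, exact permutation test, unadjusted p = 0.0820).

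**Figure D4:**
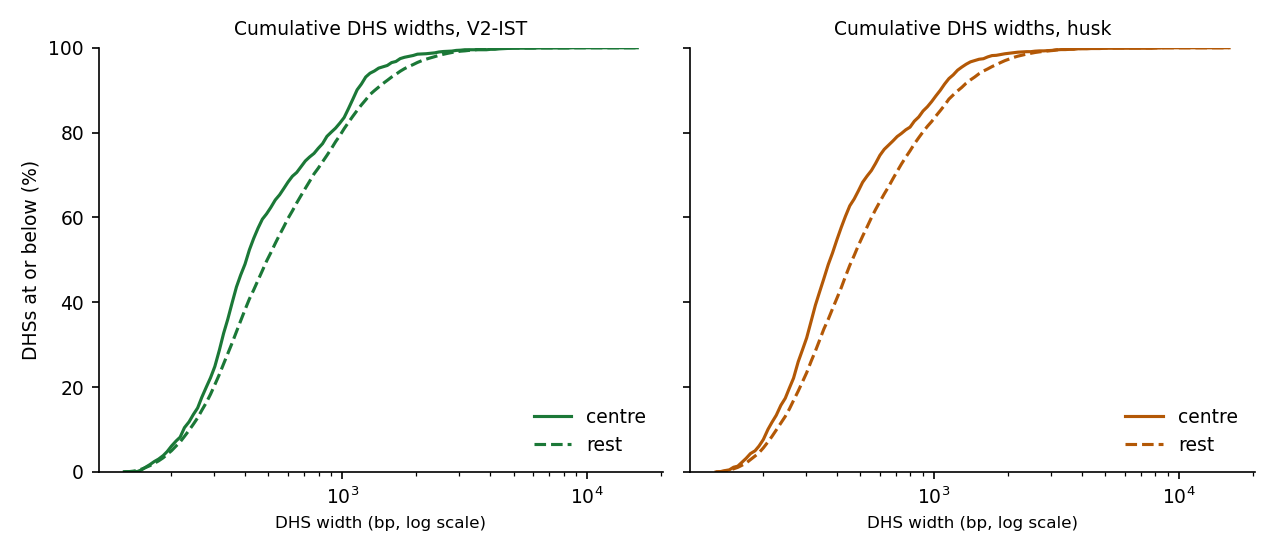
Share of DHSs at or below a given width (vertical axis, %) by width in bp (horizontal axis, log scale), for the centre (solid) and the rest (dashed), V2-IST on the left and husk on the right. The solid line lies above the dashed one over most of the range, as the medians of 406 against 495 bp in V2-IST and 377.5 against 463 bp in husk show.

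V2-IST had more central DHSs than husk on each of the 10 chromosomes. The ratio of V2-IST to husk numbers was 1.18 in the centre (95% interval from counting error 1.10 to 1.26), against 1.22 in the rest (1.19 to 1.24). The mean log2 difference between these ratios was -0.05 ± 0.10 (SD, n = 10 chromosomes, lower on 8 of 10) and did not pass (exact permutation test, adjusted p = 0.206). The central ratio was highest on chromosome 3, at 1.31 (1.08 to 1.59), and lowest on chromosome 9, at 1.05 (0.836 to 1.31). These intervals overlap, so the order of the chromosomes by ratio is not resolved at these numbers. Without chromosome 3 the difference was -0.07 (exact permutation test, unadjusted p = 0.0352).

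By tissue class, most central DHSs were shared, that is, overlapped a DHS of the other list by at least 1 bp. Of the central V2-IST DHSs 67.6% were shared (1294 of 1915, 65.4% to 69.6%), against 65.1% in the rest and 65.4% in the whole list. Of the central husk DHSs 80.7% were shared (1310 of 1624, 78.7% to 82.5%), against 79.5% in the rest and 79.6% in the whole list. Both shares were close to those of the lists as a whole. The differences from the rest, 2.65 percentage points in V2-IST and 1.03 in husk, did not pass (7 of 10 chromosomes higher in both tissues, exact permutation tests, adjusted p = 0.0936 and 0.326). The V2-IST difference depended on chromosome 3, without which it was 3.34 percentage points (exact permutation test, unadjusted p = 0.0156). With DHSs under 300 bp removed from both lists before overlaps were called, it was -1.50 (exact permutation test, unadjusted p = 0.350). That removal also dropped narrow husk DHSs, a larger share of the centre than of the rest, as possible partners. The value therefore does not give sharing by V2-IST width alone. V2-IST-only DHSs, those with no overlap in the husk list, numbered 621 (32.4%), and husk-only DHSs 314 (19.3%). Peaks of the other tissue that only 1 replicate gave, or that overlapped between replicates by less than 70%, were not kept. A tissue-only DHS therefore need not be closed in the other tissue.

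Sharing went with width. In the centre, 53.2% of V2-IST DHSs under 300 bp were shared, 67.2% of those from 300 to 500 bp, 73.8% of those from 500 to 1000 bp and 80.9% of those of 1000 bp or more. In the rest of the chromosomes the same classes had 47.1%, 65.6%, 68.9% and 76.9%. The central husk classes had 75.5%, 79.4%, 83.0% and 93.5%, against 71.7%, 77.2%, 81.6% and 90.8% in the rest. Each class was thus higher in the centre by these values, although the centre had more DHSs in the narrow classes, where sharing was lowest. No test was made by class. A wider interval also has more room to meet the 1 bp overlap.

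Counted as joined regions, 57.9% of the 2219 central regions were open in both tissues (1284), 28.0% in V2-IST only (621) and 14.2% in husk only (314). In the rest the shares were 55.4%, 30.1% and 14.5% of 19226 regions. Chromosome 9 had the highest central share of regions open in both tissues, 67.2% (60.01% to 73.72%), and the lowest share of V2-IST-only regions, 19.2% (14.1% to 25.6%). Chromosome 3 had the highest share of V2-IST-only regions, 33.0% (27.6% to 38.8%), and chromosome 10 the highest share of husk-only regions, 17.5% (12.9% to 23.2%). The V2-IST-only intervals of chromosomes 9 and 3 do not overlap, but the pair was picked as the extremes of 10. The median width of regions open in both tissues was 508.5 bp in the centre, against 644 bp in the rest, and ranged from 424.5 bp on chromosome 2 to 750 bp on chromosome 6.

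Tissue-only DHSs of the centre were narrower than the shared ones beside them, an order that was not particular to the centre. The median was 345 bp for V2-IST-only DHSs, against 441.5 bp for shared V2-IST DHSs, a mean log2 difference of -0.37 ± 0.13 (SD, n = 10 chromosomes, lower on 10 of 10, exact permutation test, adjusted p = 0.00553). When sharing required an overlap of 50% of both DHSs, this difference was -0.13 and did not pass (exact permutation test, unadjusted p = 0.0566). For husk-only DHSs the median was 345.5 bp, against 387 bp for shared husk DHSs, a mean log2 difference of -0.20 ± 0.21 (SD, n = 10 chromosomes, lower on 9 of 10, exact permutation test, adjusted p = 0.0166). In a narrower window, from 45% to 55% of the length, the husk difference was -0.14 and did not pass (exact permutation test, unadjusted p = 0.143). The rest of the chromosomes had the same order, with medians of 402.5 bp for V2-IST-only and 547.5 bp for shared V2-IST DHSs. For husk-only and shared husk DHSs of the rest, the medians were 386 bp and 490 bp.

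Central tissue-only DHSs lay far from open chromatin of the other tissue. The median distance of a V2-IST-only DHS to the nearest husk DHS was 53170 bp, against 13565.5 bp in the rest. The median distance of a husk-only DHS to the nearest V2-IST DHS was 47707 bp, against 11998.5 bp in the rest. The mean log2 difference was 1.98 ± 0.65 for V2-IST-only DHSs (SD, n = 10 chromosomes, higher on 10 of 10, exact permutation test, adjusted p = 0.00553) and 1.72 ± 0.79 for husk-only DHSs (SD, n = 10 chromosomes, higher on 10 of 10, exact permutation test, adjusted p = 0.00553). The lower density of DHSs in the centre moves with these distances, and its part in them was not tested. Under stricter overlap rules, tissue-only DHSs also include those that overlap the other list by less, with no bases between. The difference then did not pass for husk-only DHSs at 50% of both DHSs (0.71, exact permutation test, unadjusted p = 0.111). For V2-IST-only DHSs it did not pass at 70% of both (0.38, exact permutation test, unadjusted p = 0.50). These values mix overlapping and separate DHSs, so they do not bear on the distances of DHSs without any overlap. More than 100 kb from the other list were 36.1% of the central V2-IST-only DHSs (224), against 17.0% in the rest, and 31.8% of the central husk-only DHSs (100), against 14.6% in the rest. Within 1 kb the values did not follow this order in V2-IST: a husk DHS lay that close to 10.5% of the central V2-IST-only DHSs (65), against 8.32% in the rest, and a V2-IST DHS to 7.64% of the central husk-only DHSs (24), against 9.48% in the rest. These shares were not tested.

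The widest tissue-only DHSs of the centre illustrate both situations. The widest V2-IST-only DHS was chr7:108629479-108633470, of 3992 bp, with a husk DHS 976 bp away. The next were chr3:110468098-110470555, of 2458 bp and 176 kb from the nearest husk DHS, and chr6:100891644-100893931, of 2288 bp and 34.9 kb from it. The widest husk-only DHSs were narrower than these. They were chr6:97503416-97504876, of 1461 bp and 1290 bp from the nearest V2-IST DHS, chr7:87674135-87675531, of 1397 bp and 424 bp from it, and chr4:110789344-110790698, of 1355 bp and 1750 kb from it. Tissue-only regions sometimes followed each other: the longest V2-IST-only runs in the centre had 5 regions, and the first of 3 such runs covered 930 kb (chr2:113159928-114089538). The longest husk-only runs had 3 regions, and the first of 8 such runs covered 53.0 kb (chr1:177530023-177582983). The longest run open in both tissues had 15 regions over 4123 kb (chr1:158116138-162239541), in the later part of the chromosome 1 window.

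Although central DHSs were sparse, about as large a share of them as in the rest had another DHS within 1 kb. A second DHS of the same list lay within 1 kb of 15.8% of the central V2-IST DHSs (302, 14.2% to 17.5%), against 14.2% in the rest. In husk the share was 14.2% (231, 12.6% to 16.0%), against 12.4% in the rest. These differences, 2.04 and 2.24 percentage points, did not pass (exact permutation tests, adjusted p = 0.206 and 0.151). Without chromosome 3 the husk difference was 2.89 percentage points (exact permutation test, unadjusted p = 0.0430), and without chromosome 4 it was 3.06 (exact permutation test, unadjusted p = 0.0313). At 5 kb the order was the reverse: 32.8% of the central V2-IST DHSs had a neighbour, against 44.5% in the rest (mean difference -10.7 percentage points, lower on 9 of 10 chromosomes, exact permutation test, unadjusted p = 0.00586), and 27.8% in husk, against 38.8% in the rest (-10.1 percentage points, lower on 7 of 10, exact permutation test, unadjusted p = 0.0156). The median distance to the nearest DHS was 31.0 kb in the V2-IST centre, against 6.8 kb in the rest, and 40.3 kb in the husk centre, against 10.1 kb in the rest. More than 100 kb from any other DHS of their list were 26.9% of the central V2-IST DHSs (515), against 10.9% in the rest, and 30.5% of the central husk DHSs (496), against 14.0% in the rest.

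**Figure D5:**
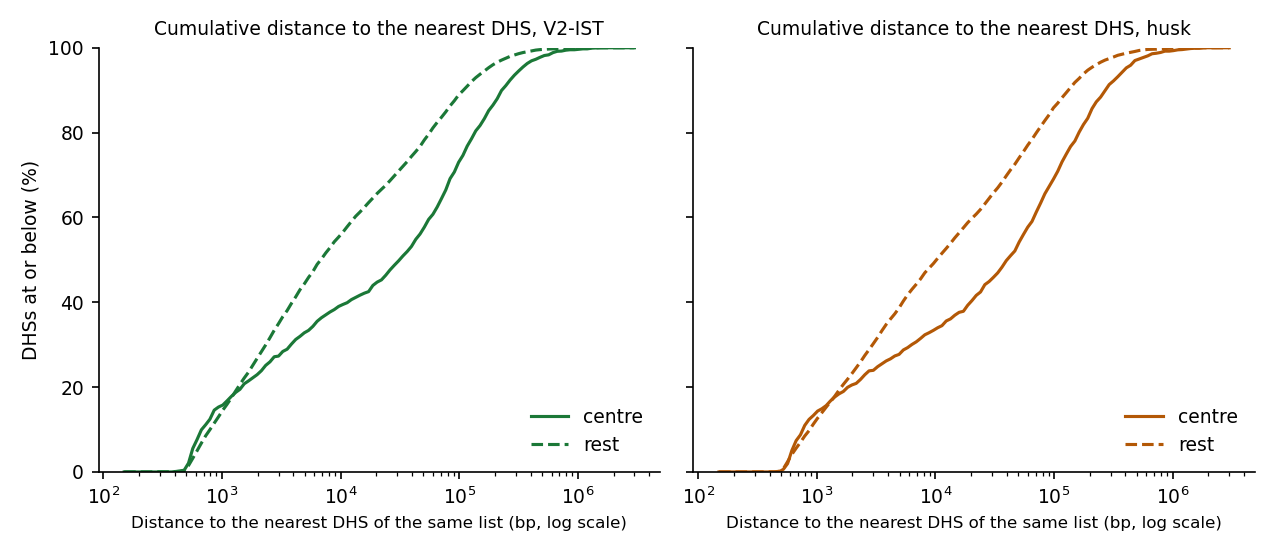
Share of DHSs whose nearest DHS of the same list lies at or below a given distance (vertical axis, %) by that distance in bp (horizontal axis, log scale), for the centre (solid) and the rest (dashed), V2-IST on the left and husk on the right. The solid lines are above the dashed ones at 1 kb, where the shares are 15.8% against 14.2% in V2-IST and 14.2% against 12.4% in husk, and below them at 5 kb, where the shares are 32.8% against 44.5% in V2-IST and 27.8% against 38.8% in husk.

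Shared DHSs could be compared by their boundaries. Overlaps between the lists never joined a central DHS with one outside the centre, and 1249 central pairs overlapped each other and no other DHS, against 10335 in the rest. The V2-IST DHS was the wider one in 61.4% of the central pairs (767, 58.7% to 64.1%), against 61.5% in the rest. This difference did not pass (-0.33 percentage points, exact permutation test, adjusted p = 0.838), and the V2-IST DHS exceeded its partner by 19 bp in the centre, against 29 bp in the rest, as the median over pairs. Boundaries were closer in the centre: the median summed difference of both ends was 95 bp, against 131 bp in the rest.

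Pairs with near-identical boundaries, in which both ends together differed by at most 30 bp, were more frequent in the centre. They made up 17.6% of the central pairs (220, 15.6% to 19.8%), against 11.6% in the rest (1204) and 12.3% of all 11584 pairs. The mean difference was 5.95 ± 5.06 percentage points (SD, n = 10 chromosomes, higher on 8 of 10, exact permutation test, adjusted p = 0.0166). Against the adjacent parts alone it was 2.39 percentage points and did not pass (exact permutation test, unadjusted p = 0.205). The central share ranged from 10.3% on chromosome 5 to 25.7% on chromosome 2. By the width of the narrower DHS of a pair, the central shares were 20.8% under 300 bp, 17.9% from 300 to 500 bp, 9.16% from 500 to 1000 bp and 22.4% at 1000 bp or more. The rest had 15.5%, 12.6%, 8.14% and 9.18% in these classes, so the gap between centre and rest was widest among pairs of at least 1000 bp, of which the centre had 134. Of 15 central pairs in which both DHSs had at least 2000 bp, 6 were near-identical, against 31 of 206 in the rest.

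The widest shared DHS of the centre was of this kind. On chromosome 4, chr4:115201186-115209723 was 8538 bp wide in V2-IST and 8527 bp wide in husk, with starts 9 bp and ends 2 bp apart. The second, chr10:76629406-76635599, was 6194 bp wide in V2-IST and 7728 bp wide in husk, and its starts were 1508 bp apart. The third, chr9:90544492-90549419, was 4928 bp wide in V2-IST and 4919 bp wide in husk, with starts 3 bp and ends 6 bp apart. This last DHS lay in the densest 100 kb of the centre, chr9:90500001-90600000, which had 8 regions with summed widths of 10727 bp. All of them were open in both tissues. All 8 pairs of this window were near-identical, with summed differences between 5 and 20 bp, over V2-IST widths from 159 to 4928 bp. Of the 6 near-identical central pairs of at least 2000 bp, 5 were on chromosome 9: 3 in this window, and chr9:77044846-77049135 and chr9:77039710-77042819 near 77 Mb. These 5 were noticed after their values were seen.

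The other dense windows differed from it in both sharing and boundaries. The second, chr6:91300001-91400000, had 7 regions, 3 open in both tissues and 4 in V2-IST only, and 2 of its 3 pairs were near-identical. The third, chr1:162400001-162500000, was the first in chromosome order of several windows with 6 regions, since the densest central windows of chromosomes 7 and 8 had 6 as well. It had 3 regions open in both tissues and 3 in V2-IST only, and none of its 3 pairs was near-identical, with summed differences from 52 to 117 bp. None of these 3 windows had a husk-only region.

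At the limits of the centre, the DHSs just inside and just outside the window ranged from 252 to 1095 bp in width. The first V2-IST DHS inside the lower limit, chr8:72497813-72498223, had 411 bp and was shared, and the nearest one outside it, chr10:60331052-60331942, had 891 bp and was not shared. At the upper limit, chr1:184021190-184022284 inside had 1095 bp and was not shared, and chr9:95759722-95760220 outside had 499 bp and was shared. In husk, chr8:72497925-72498176 inside the lower limit had 252 bp and chr8:72389677-72390251 outside it had 575 bp. At the upper limit, chr8:108604978-108605770 inside had 793 bp and chr9:95759918-95760791 outside had 874 bp.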

How the data were processed

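DNase-seq was performed by the authors on nuclei of V2-IST and husk. The labels' processing notes name BWA, SAMtools, MACS2 and B73 RefGen_v3, and the study's methods state that reads were aligned to AGPv4. Reads of low mapping quality were removed, and peaks were called per biological replicate with naked DNA as the control. The authors deposited 1 list per tissue with 3 columns, a chromosome and 2 positions in bp, and no other unit. Coordinates are on AGPv4 per the methods and are printed 1-based, that is, with 1 added to the deposited start, which counts from 0. The genome and gene models of that build were not used, so no DHS is assigned to a gene and no sequence is shown.

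Lists were analysed as deposited, without a filter. Widths are the deposited end minus the deposited start, and distances count the bases between DHSs. Tests exchanged centre and rest over 10 chromosomes (1024 exchanges), and the threshold was an adjusted p of 0.05. Alternatives are judged by the unadjusted p. Chromosomes share both libraries and are not biological replicates, and neighbouring DHSs are not independent. Named regions were the 3 widest DHSs per class, the 3 most isolated regions, the 3 densest windows of 100 kb, the 3 longest stretches without a DHS and the longest runs. The members, lists and tests were chosen with earlier results of these data known. The code was tested on simulated lists. Tables were handled with pandas 2.3.3 and numpy 2.4.6 in Python 3.11.15. Tests were run with scipy 1.17.1. Figures were drawn with matplotlib 3.10.9.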

Additional observations from a re-analysis of the deposited data

How the results depend on the processing

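No paired analysis was possible because the authors had merged the replicates of a tissue before deposition, which also means that no replicate could be left out. Of 105 values under other windows, filters and rules, 71 kept their direction and their side of the threshold (exact permutation tests, unadjusted p). Both densities, both widths of centre against rest and, at other windows, widths and list lengths, both distances were among these. With a window from 45% to 55%, the difference in the V2-IST shared share was 3.83 percentage points (exact p = 0.0469), the husk width difference of tissue-only DHSs -0.14 and the share of pairs wider in V2-IST 2.92. With a window from 30% to 70%, the number ratio was -0.0589 (exact p = 0.0371), the V2-IST share of at least 1000 bp -2.45 (exact p = 0.0410), the V2-IST shared share 2.23 (exact p = 0.00977), the husk shared share -0.618, the V2-IST neighbour share 2.71 (exact p = 0.0313) and the pairs wider in V2-IST 0.0725. Against the adjacent parts, the number ratio was 0.0185, the husk share of at least 1000 bp -2.94, the pairs wider in V2-IST 0.232 and the near-identical pairs 2.39. With DHSs under 300 bp removed from both lists before overlaps were called, the number ratio was 0.0307. The shared shares were then -1.50 in V2-IST and -0.592 in husk, and the neighbour shares -1.29 in V2-IST and -1.76 in husk. Lists of equal length were made by dropping the narrowest V2-IST DHSs until that list was as long as the husk list. The number ratio was then -0.11 (exact p = 0.0117), the husk shared share -1.79 (exact p = 0.0293), the V2-IST neighbour share -0.615 and the pairs wider in V2-IST 0.251. Narrow V2-IST DHSs were a larger share of the centre than of the rest, so the cut fell more on the centre. Under the stricter overlap rules, tissue-only DHSs include some that overlap the other list by less, with no bases between. With an overlap of 50% of both DHSs, the V2-IST shared share was 2.77 (exact p = 0.0293), the V2-IST width of tissue-only DHSs -0.13 and the husk-only distance 0.71. With 70% they were 4.85 (exact p = 0.00586) and -0.0755 in V2-IST, the V2-IST-only distance was 0.38, and the husk-only distance gave no value because its median was 0 on a chromosome. At 2000 bp in place of 1000 bp the wide shares were -1.94 in V2-IST (exact p = 0.00781) and -1.26 in husk. With neighbours within 2 kb the differences were -3.05 in V2-IST and -1.79 in husk, and within 5 kb -10.7 and -10.1. The cause of these shifts was not tested.

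Leaving out each chromosome in turn kept direction and side of the threshold in 161 of 170 values. The densities ranged from -1.13 to -1.01 in V2-IST and from -1.09 to -0.97 in husk, and the near-identical pairs from 5.23 to 6.73. The number ratio ranged from -0.0689 to -0.0299, the V2-IST share of at least 1000 bp from -3.71 to -2.05 (past the threshold without chromosome 6, exact p = 0.0234, and without chromosome 9, exact p = 0.0469), the V2-IST shared share from 1.67 to 3.34, the husk neighbour share from 1.80 to 3.06 and the pairs wider in V2-IST from -1.18 to 0.629, with the sign changed without chromosome 6, 8 or 10.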

Other observations

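In the centre, DHSs with another DHS of the same list within 1 kb had a median width of 354.5 bp in V2-IST, against 420 bp for central DHSs without such a neighbour, and 348 bp in husk, against 381 bp without one. In the rest of the chromosomes the order was the other way round, with 525 bp with a neighbour, against 489 bp without, in V2-IST, and 548 bp with a neighbour, against 453 bp without, in husk. Among central husk DHSs, 90.9% of those with such a neighbour were shared with V2-IST, against 79.0% of those without, whereas among central V2-IST DHSs the shares were 69.9% and 67.1%. These values were looked at after the data were seen, and the differences were not tested.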
